A study of Mus musculus with 6 samples.

Results

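The DNAJ genes encode the J-domain proteins, also called HSP40 co-chaperones, the partners that bring unfolded clients to the HSP70 chaperones and switch on their ATPase. The members were taken by name, as every gene of the deposited table whose symbol begins with Dnaja, Dnajb or Dnajc and a number. There are 45 of them among 34714 genes, 4 in class A, 13 in class B and 28 in class C. RNA was sequenced from whole kidney of 8-week-old mice fed normal chow, 3 Hspa8 knockout and 3 wild-type samples, in a series on how HSC70, the product of Hspa8, bears on PKR and on activation of SREBPs, the regulators of lipid synthesis. The wild-type titles carry the letters C57, and the mice obtained for the series were C57BL/6J, Hspa8 flox/flox on that background and Cdh16-Cre, whose promoter drives Cre in tubule epithelium. The labels of the knockout samples do not state which Cre they carry, so tubule cells that escaped Cre, and all other kidney cells, may keep the gene, and the floxed allele and Cre may differ between the groups along with the deletion.

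J-domain proteins stimulate ATP hydrolysis by HSP70 through a short conserved motif in the J domain. Class A members also hold a glycine- and phenylalanine-rich stretch and a zinc finger, class B members the glycine- and phenylalanine-rich stretch alone, and class C members share only the J domain. The name of the family covers more than partners of HSC70. The members of the endoplasmic reticulum lumen work with BiP, the product of Hspa5, and those of the mitochondrial matrix with mortalin, the product of Hspa9, while the cytosolic class A and class B members and the clathrin-uncoating auxilins work with HSC70 and its inducible relatives.

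Levels are given in FPKM, in which fragments are divided by transcript length and by the total of the library, so that genes can be set side by side per length. Values for single libraries run in the order of replicates 1, 2 and 3. A member was tested if its mean over the 6 libraries was at least 1 FPKM, which 39 of the 45 were. Fold changes are knockout over wild-type on the log2(FPKM + 1) scale, given with their standard error (SE). The test was limma, with p adjusted by Benjamini-Hochberg over the 12174 genes that met the same minimum and called under 0.05, and the exact two-sided permutation test of 3 against 3 can give no p below 0.1. Depth is unknown because the values hold no read totals, and each library summed to between 381586 and 417123 FPKM. Separate animals are not stated for the samples of a group, so each p reflects only how these samples vary, and that variation may be technical. Lrp2, Slc34a1, Umod and Aqp2, which mark proximal tubule, thick ascending limb and collecting duct, were all present, with means over the 6 libraries between 68.2 FPKM for Aqp2 and 1728 FPKM for Slc34a1.

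Hspa8 itself had 650, 699 and 781 FPKM in knockout, against 1058, 1092 and 1318 FPKM in wild-type libraries. All 3 knockout libraries lay below all 3 wild-type libraries, and the knockout mean was 61.4% of the wild-type mean (log2 fold change -0.70, SE 0.122, limma adjusted p = 0.866). In whole tissue, fewer cells of a type and less RNA per cell cannot be told apart.

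In knockout kidney 4 cytosolic co-chaperones, Dnajb1, Dnaja1, Dnajb4 and Dnaja4, had the largest negative fold changes of the family, and the other 35 tested members had log2 fold changes between -0.19 and 0.24. No member passed the test, with adjusted p from 0.914 to 0.998, nor did any other gene of the table (limma, 0 of 12174 genes, 0%, with 629 at an unadjusted p under 0.05). At that unadjusted level there were 2 members lower in the knockout, Dnajb1 and Dnaja1, among 39, where 4.21% of all tested genes were so called, and 0 members higher, where 0.953% of all genes were. The median log2 fold change of the 39 members was 0.01, against -0.04 over all tested genes. Of the members 17 were below 0 and 22 above, while 64.9% of all tested genes were below 0. With library medians equalised, 11 members and 46.5% of all tested genes were below 0. By class, 3 of 4 tested class A members were below 0 with a median of -0.15, 7 of 9 in class B with a median of -0.05, and 7 of 26 in class C with a median of 0.03. These counts depend on the scaling, because with library medians equalised members of each class turned above 0. Among them were Dnaja2 (0.014), Dnajb6 (0.032), Dnajb11 (0.0061), Dnajb12 (0.012) and Dnajc14 (0.051). In 27 of the 39 members the log2 fold change was under 0.1 in size, a share of 69.2%, against 60.6% of all tested genes.

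**Figure D1:**
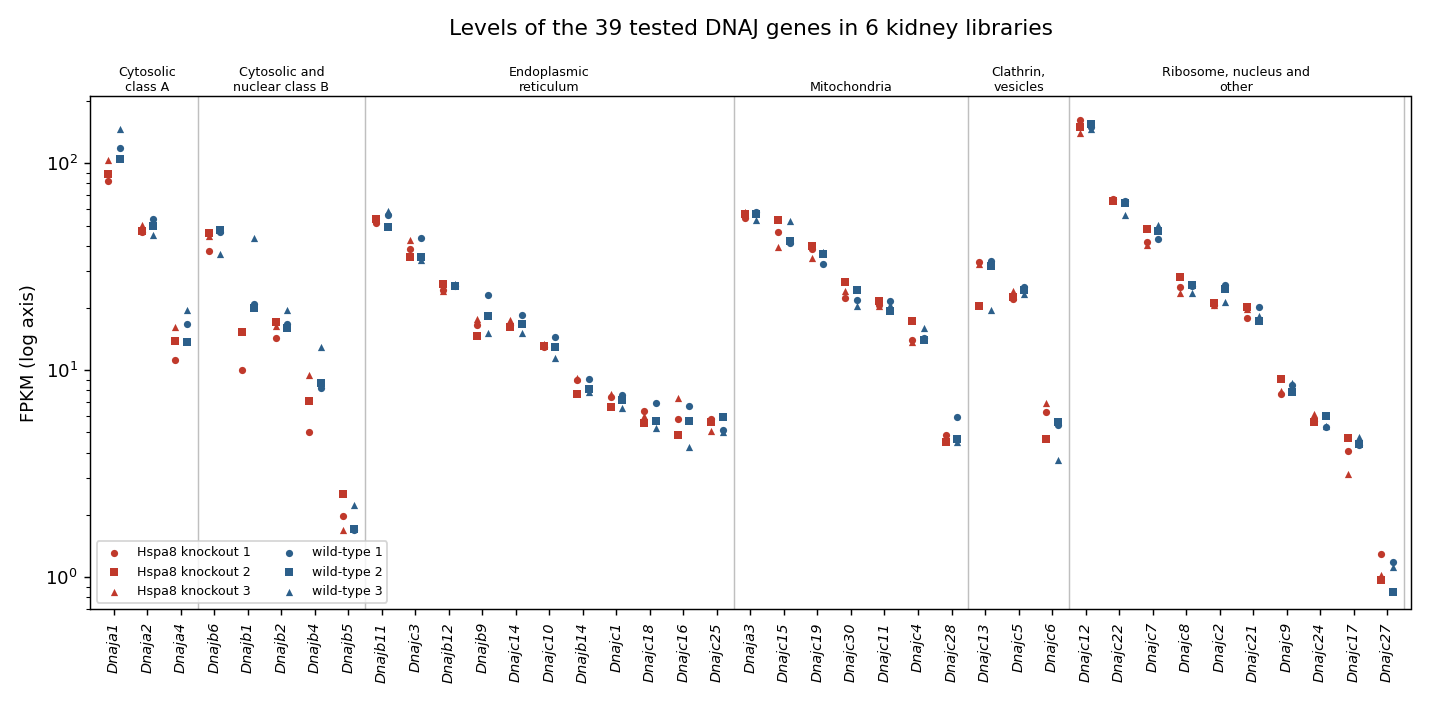
FPKM of each tested DNAJ gene (log axis) in 3 Hspa8 knockout libraries (red) and 3 wild-type libraries (blue), with a marker shape per replicate and genes grouped by where their products work. Dnajc12 and Dnaja1 are the most abundant members. For most genes the red and blue points overlap, while the groups are apart for Dnajb1, Dnaja1, Dnajc2 and Dnajc22.

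**Figure D2:**
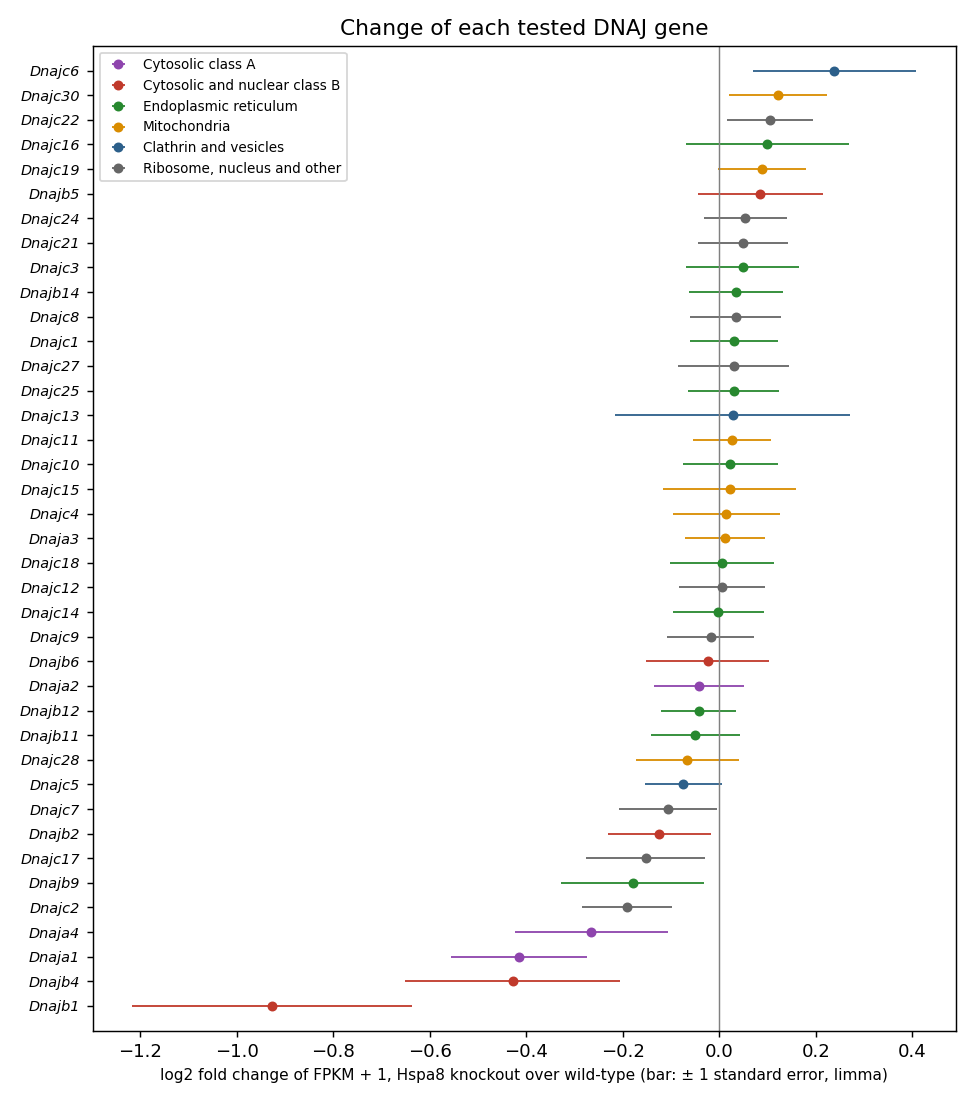
Log2 fold change of FPKM + 1, knockout over wild-type, for the 39 tested DNAJ genes, ordered from highest to lowest, with bars of 1 standard error from limma and colours for where the products work. Dnajb1 (-0.93), Dnajb4 (-0.43), Dnaja1 (-0.42) and Dnaja4 (-0.27), all cytosolic, have the lowest values.

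Dnajb1 (chromosome 8, 83608175 to 83612653 in GRCm38.p6) encodes the canonical heat-inducible HSP40, which works with HSC70 and HSP70 to refold proteins and to break up aggregates. It had 10.1, 15.3 and 15.5 FPKM in knockout, against 21.0, 19.9 and 43.5 FPKM in wild-type libraries. The groups did not overlap, and wild-type replicate 3 stood far above the other 5 libraries. The mean was 13.6 ± 3.09 FPKM in knockout and 28.1 ± 13.3 FPKM in wild-type kidney (SD, n = 3 each), a log2 fold change of -0.93 (SE 0.291, limma adjusted p = 0.914). The exact permutation test gave p = 0.1. Without wild-type replicate 3 the log2 fold change was -0.58, and with knockout replicate 1 left out as well it was -0.39.

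Dnaja1 (chromosome 4, 40722468 to 40734965) encodes the most abundant cytosolic class A protein, a farnesylated partner of HSC70 that serves protein folding and import into mitochondria. It had 82.1, 88.6 and 103.9 FPKM in knockout, against 118.8, 104.5 and 145 FPKM in wild-type libraries. The groups were apart by less than 1 FPKM, between knockout replicate 3 and wild-type replicate 2, and the libraries stood in the same order as for Dnajb1. The mean was 91.5 ± 11.2 FPKM in knockout and 123 ± 20.8 FPKM in wild-type kidney (SD, n = 3 each), or 74.4% of wild-type, with a log2 fold change of -0.42 (SE 0.141, limma adjusted p = 0.931; exact permutation p = 0.1). With knockout replicate 1 and wild-type replicate 3, its lowest and highest library, left out it was -0.21. RefSeq lists a processed copy, Dnaja1-ps, so reads of the gene may have been split.

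Dnajb4, a close relative of Dnajb1, had 5.04, 7.09 and 9.48 FPKM in knockout, against 8.21, 8.67 and 12.99 FPKM in wild-type libraries. Knockout replicate 3 lay above wild-type replicates 1 and 2, so the groups overlapped. Its log2 fold change was -0.43 (SE 0.222, limma adjusted p = 0.973), and -0.04 with knockout replicate 1 and wild-type replicate 3 left out. Dnaja4, a class A relative of Dnaja1, had 11.2, 13.8 and 16.1 FPKM in knockout, against 16.7, 13.7 and 19.6 FPKM in wild-type libraries. Its groups overlapped as well, and the log2 fold change was -0.27 (SE 0.159, limma adjusted p = 0.995), and -0.02 without the same pair of libraries. Those are the lowest and the highest library for both genes, so leaving them out had to raise the fold change. With knockout replicate 2 and wild-type replicate 3 left out in their place, the values were -0.25 for Dnajb4 and -0.16 for Dnaja4.

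All 4 of these genes were lowest in knockout replicate 1 and highest in wild-type replicate 3. Dnajb2 shared that order at its ends, which makes 5 of 39 members, or 12.8%, against 6.19% of all tested genes. Dnajb1, Dnaja1, Dnajb4 and Dnaja4 were named for the lowest fold changes of the family. That choice favours genes with their lowest library in the knockout and their highest in wild-type, so their shared extremes are not separate from it. The inducible HSP70 genes Hspa1a and Hspa1b, near-identical copies whose reads can be shared, had the same extremes. Summed, they had 6.49, 76.8 and 61.2 FPKM in knockout, against 40.004, 45.9 and 244 FPKM in wild-type libraries. Knockout replicates 2 and 3 thus stood above wild-type replicates 1 and 2 for the inducible HSP70 pair, while for Dnajb1 they stood below. The log2 fold change of Hspa1b was -1.23 (SE 0.926) over all libraries. With knockout replicate 1 and wild-type replicate 3 left out it was 0.61, and that of Dnajb1 was -0.39. Those are the lowest and the highest library for Hspa1b and for Dnajb1, so leaving them out had to raise both values. The difference in sign between Hspa1b and Dnajb1 was not tested.

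**Figure D3:**
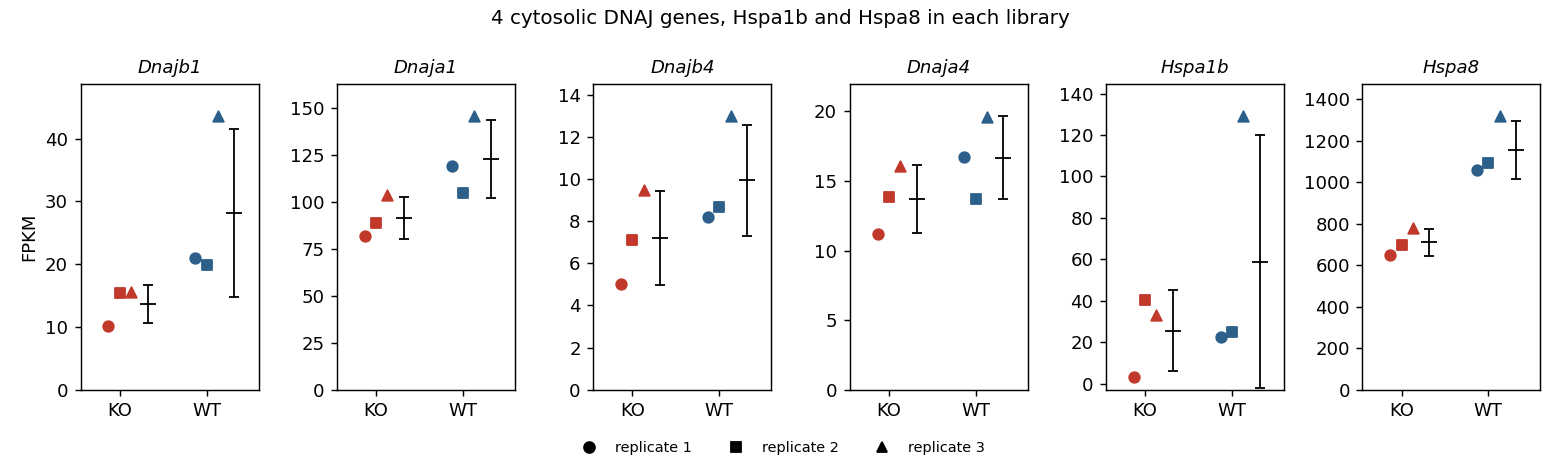
FPKM of Dnajb1, Dnaja1, Dnajb4, Dnaja4, Hspa1b and Hspa8 in each knockout (KO, red) and wild-type (WT, blue) library, with a marker shape per replicate and the mean ± SD (n = 3) in black beside each group. Groups are apart for Dnajb1, Dnaja1 and Hspa8, and wild-type replicate 3 is the highest library in all 6 panels; the wild-type SD bar of Hspa1b reaches below 0 because the SD (60.9) exceeds the mean (58.9).

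Markers of other cells and of tissue handling also differed between libraries. The summed FPKM of 5 immediate early genes, Fos, Jun, Egr1, Atf3 and Fosb, was 18.6, 138 and 128 in knockout, against 18.1, 81.7 and 168 in wild-type libraries. All 7 endothelial markers had log2 fold changes below 0, and their summed level ranged from 62.6 to 77.1 FPKM in knockout and from 76.8 to 106 FPKM in wild-type kidney. Of the leukocyte markers 6 of 6 tested were below 0, with sums of 113 to 187 FPKM in knockout and 149 to 200.1 FPKM in wild-type kidney, and of the fibroblast and mural markers 5 of 5, with sums of 36.7 to 46.3 FPKM in knockout and 47.1 to 65.2 FPKM in wild-type kidney. Podocyte markers had 5 of 5 below 0, with sums of 55.4 to 80.6 FPKM in knockout and 71.4 to 102 FPKM in wild-type kidney, and adipocyte markers 2 of 2 tested, with sums of 25.2 to 39.5 FPKM in knockout and 32.03 to 77.2 FPKM in wild-type kidney. Red cell transcripts went the other way, with 4 of 4 tested markers above 0 and sums of 413, 69.4 and 545 FPKM in knockout, against 43.3, 51.4 and 53.4 FPKM in wild-type libraries. The lists of proximal tubule, thick ascending limb with distal tubule, and collecting duct had median log2 fold changes of -0.03, -0.01 and -0.01. Thick ascending limb with distal tubule summed to 1153, 1738 and 1629 FPKM in knockout, against 1381, 1392 and 1625 FPKM in wild-type libraries. Collecting duct summed to 135, 216 and 197 FPKM in knockout, against 178, 168 and 183 FPKM in wild-type libraries. Knockout replicate 1 was thus lowest in both, while for proximal tubule it was highest, at 3188 FPKM against at most 3109 FPKM in the other libraries. No listed marker stood at 0 in every library, and the part of these cells and of tissue handling in the DNAJ values was not tested.

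The starts of these genes were searched for the core of the heat shock element, the letters to which heat shock factors bind, because the genes shared their extremes over the libraries. The letters searched were GAANNTTC and TTCNNGAA, each its own reverse complement, in windows of 250 bases before to 50 after a transcript start, from RefSeq on GRCm38.p6, where a gene can have several starts and counted if any of its windows matched. Windows were found for 37 of the 45 members, and 7 of these members, or 18.9%, held the letters, against 16.97% of all genes with a window, so the family as a whole lies close to the background. Among the 7 were Dnaja1, with a match in 1 of its 3 windows, and Dnaja4 and Dnajb4, each with a match in 1 of 2. Of all single windows 15.1% held the letters, and a gene with several windows has more chances to match. The matching window of Dnajb4 lies at an alternative start inside the gene, and that of Dnaja4 at the more downstream of its 2 starts. The other members with the letters were Dnajb6, Dnajc10, Dnajc27 and Dnajc5g. Dnajb2, which shared the extremes over the libraries, was not among the 7, and binding of heat shock factors was not tested. The windows that hold the letters follow for Dnaja1, Dnaja4 and Dnajb4. After them come the more upstream of the 2 windows of Dnajb1, neither of which holds any, and that of Hspa1b for comparison, with matches in capitals.
Dnaja1 (chr4:40722218-40722517, plus strand): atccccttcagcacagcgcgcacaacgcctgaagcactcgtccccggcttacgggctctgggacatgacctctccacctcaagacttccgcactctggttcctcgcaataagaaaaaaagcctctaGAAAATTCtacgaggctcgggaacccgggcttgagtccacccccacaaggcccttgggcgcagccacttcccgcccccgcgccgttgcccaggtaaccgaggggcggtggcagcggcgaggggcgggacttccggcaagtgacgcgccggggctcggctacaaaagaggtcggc
Dnaja4 (chr9:54699309-54699608, plus strand): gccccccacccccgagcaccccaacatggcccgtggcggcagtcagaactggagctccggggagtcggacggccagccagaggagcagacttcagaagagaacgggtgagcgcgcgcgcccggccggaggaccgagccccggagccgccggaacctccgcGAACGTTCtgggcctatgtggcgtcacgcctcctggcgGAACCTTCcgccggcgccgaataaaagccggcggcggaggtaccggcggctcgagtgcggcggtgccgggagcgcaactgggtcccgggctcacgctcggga
Dnajb4 (chr3:152193796-152194095, minus strand): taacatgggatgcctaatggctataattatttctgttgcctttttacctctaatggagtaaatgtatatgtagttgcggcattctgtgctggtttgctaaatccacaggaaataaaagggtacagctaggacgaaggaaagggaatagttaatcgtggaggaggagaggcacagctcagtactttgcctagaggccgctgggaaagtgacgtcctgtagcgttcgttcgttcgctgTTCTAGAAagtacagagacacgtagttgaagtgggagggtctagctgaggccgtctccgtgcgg
Dnajb1 (chr8:83607925-83608224, plus strand): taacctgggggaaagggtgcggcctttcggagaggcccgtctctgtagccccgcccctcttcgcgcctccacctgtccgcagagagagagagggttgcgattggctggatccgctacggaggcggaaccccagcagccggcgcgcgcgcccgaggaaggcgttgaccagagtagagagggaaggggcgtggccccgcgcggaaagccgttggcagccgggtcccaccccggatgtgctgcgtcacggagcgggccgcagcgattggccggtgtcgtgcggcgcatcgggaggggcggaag
Hspa1b (chr17:34959189-34959488, minus strand): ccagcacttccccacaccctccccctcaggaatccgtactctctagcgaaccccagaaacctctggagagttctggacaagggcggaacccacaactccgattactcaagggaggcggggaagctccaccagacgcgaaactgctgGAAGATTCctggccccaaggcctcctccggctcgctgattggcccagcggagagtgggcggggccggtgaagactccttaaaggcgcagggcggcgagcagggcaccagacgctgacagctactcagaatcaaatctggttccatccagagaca
Counted from the start that the window belongs to, the match began 124 bases before it in Dnaja1, 90 and 52 bases in Dnaja4, 14 bases in Dnajb4 and 104 bases in Hspa1b. A match describes letters and not a bound site, and the absence of these letters from the Dnajb1 windows says nothing about its regulation.

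The remaining tested class A and B members of cytosol and nucleus overlapped between the groups. Dnaja2, the second constitutive class A partner of HSC70, had 46.5, 47.2 and 50.3 FPKM in knockout and 53.9, 49.7 and 44.97 FPKM in wild-type libraries, and the groups overlapped. Dnajb2, which delivers ubiquitinated clients to the proteasome, had 14.3, 17.1 and 16.3 FPKM in knockout and 16.7, 16.1 and 19.5 FPKM in wild-type libraries (log2 fold change -0.12, SE 0.106). Dnajb6, a suppressor of polyglutamine aggregation, averaged 42.6 ± 4.30 FPKM in knockout and 43.5 ± 6.18 FPKM in wild-type kidney. It too has a processed copy in RefSeq. Dnajb5, a further relative of Dnajb1, was low, at 1.97, 2.52 and 1.69 FPKM in knockout and 1.70, 1.72 and 2.22 FPKM in wild-type libraries, and had a log2 fold change of 0.09. Over the 8 tested cytosolic class A and B members 7 were below 0, where 64.9% of all tested genes were. Their median was -0.19, against the -0.04 of all tested genes. These 8 include Dnajb1, Dnaja1, Dnajb4 and Dnaja4, which were named for the lowest fold changes of the family and so pull that median down. The remaining members had log2 fold changes of -0.04 for Dnaja2, -0.12 for Dnajb2, -0.02 for Dnajb6 and 0.09 for Dnajb5. With library medians equalised, Dnaja2 and Dnajb6 turned above 0, at 0.014 and 0.032, while Dnajb2 and Dnajb5 kept their signs. Of all tested genes 46.5% were then below 0.

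The 12 cytosolic class A and B genes were also summed and set against Hspa8, whose product they serve. The sum was 210, 238 and 258 FPKM in knockout, against 284, 263 and 325 FPKM in wild-type libraries. Set against Hspa8 in the same library, it was 32.2%, 34.04% and 33.0% in knockout replicates, against 26.8%, 24.1% and 24.7% in wild-type replicates. The groups did not overlap, with means of 33.1% ± 0.904 in knockout and 25.2% ± 1.45 in wild-type kidney (SD, n = 3 each). Both terms were lower in the knockout, and Hspa8, the deleted gene, by the larger factor, so the higher percentage is not particular to these members. All 45 members summed to 147% ± 11.5 of Hspa8 in knockout and 95.3% ± 10.8 in wild-type kidney (SD, n = 3 each). The 33 other members summed to 804 ± 11.3 FPKM in knockout and 801 ± 24.6 FPKM in wild-type kidney (SD, n = 3 each), with overlapping groups.

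**Figure D4:**
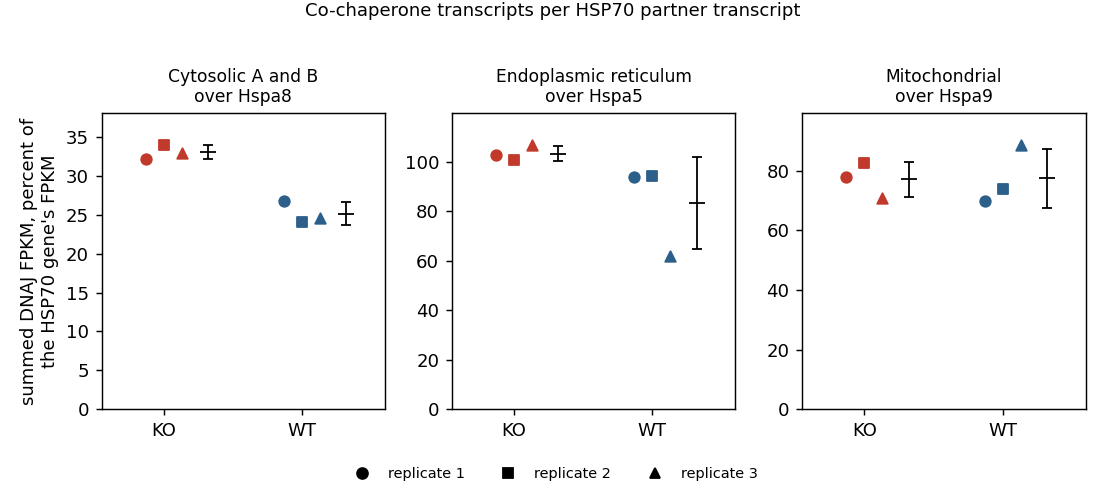
Summed FPKM of cytosolic class A and B DNAJ genes as a percentage of Hspa8, of endoplasmic reticulum DNAJ genes as a percentage of Hspa5, and of mitochondrial DNAJ genes as a percentage of Hspa9, in each knockout (KO, red) and wild-type (WT, blue) library, with the mean ± SD (n = 3) in black. Knockout libraries lie above all wild-type libraries in the first and second panels and overlap with them in the third.

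None of the members of the endoplasmic reticulum had groups apart. These 11 genes summed to 195, 189 and 203 FPKM in knockout, against 216, 191 and 189.7 FPKM in wild-type libraries, with 4 below 0 and 7 above, and their median fold change was 0.02 on the log2 scale. Dnajb9 encodes ERdj4, a stress-induced partner of BiP that holds the sensor IRE1 inactive. It had 16.6, 14.6 and 17.7 FPKM in knockout and 23.0, 18.3 and 15.1 FPKM in wild-type libraries, and the groups overlapped (log2 fold change -0.18, SE 0.148, limma adjusted p = 0.998). Dnajb11, or ERdj3, a secreted and lumenal partner of BiP whose human gene is mutated in a form of polycystic kidney disease, had 51.6, 53.6 and 52.9 FPKM in knockout and 55.9, 49.4 and 58.9 FPKM in wild-type libraries.

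Dnajc3 encodes P58IPK, known both as an inhibitor of PKR, the kinase of this series, and as a partner of BiP in the lumen. It had 38.3, 35.4 and 42.5 FPKM in knockout and 43.4, 35.3 and 33.9 FPKM in wild-type libraries. The groups overlapped, with means of 38.7 ± 3.56 FPKM in knockout and 37.5 ± 5.12 FPKM in wild-type kidney (SD, n = 3 each) and a log2 fold change of 0.05 (SE 0.118). Eif2ak2, which encodes PKR, averaged 4.60 ± 0.231 FPKM in knockout and 4.46 ± 0.140 FPKM in wild-type kidney. Dnajc3 was the 1 member of 37 whose window held the ER stress response element (CCAAT and CCACG with 9 bases between them, on either strand), which 0.137% of all genes with a window hold. It is shown because this element is bound by ATF6, which induces chaperones of the endoplasmic reticulum, with its fixed letters in capitals.
Dnajc3 (chr14:118937827-118937845, plus strand): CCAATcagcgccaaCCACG
The element began 105 bases before the start of Dnajc3. The sterol regulatory element (TCACNCCAC on either strand), to which SREBPs bind, was found in the windows of 0 of the 37 members and of 1.44% of all genes.

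The other members of this compartment were Dnajc10, or ERdj5, a disulphide reductase, Dnajb12 and Dnajb14, membrane proteins that work with HSC70 in degradation of misfolded proteins, Dnajc1, Dnajc14, Dnajc16, Dnajc18 and Dnajc25. Their log2 fold changes ran from -0.04 for Dnajb12 to 0.10 for Dnajc16. Dnajc16 had 5.81, 4.89 and 7.33 FPKM in knockout and 6.70, 5.69 and 4.28 FPKM in wild-type libraries, with overlapping groups. Hspa5, whose product the lumenal members serve, had 189.7, 188 and 190.2 FPKM in knockout and 230.4, 202 and 307 FPKM in wild-type libraries, with groups apart (log2 fold change -0.36, SE 0.147, limma adjusted p = 0.96). The summed endoplasmic reticulum members were 103%, 101% and 107% of Hspa5 in knockout replicates and 93.9%, 94.5% and 61.9% in wild-type libraries. The low value was that of wild-type replicate 3, in which Hspa5 was highest. Without that library the log2 fold change of Hspa5 was -0.19. The sum takes in Dnajb12 and Dnajb14, which work with HSC70. It overlapped between the groups while Hspa5 was lower in the knockout, so the higher percentage is not particular to these members.

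The 7 mitochondrial members overlapped between the groups, with 1 below 0 and 6 above, and their median fold change was 0.02 on the log2 scale. Dnaja3, or TID1, the class A partner of mortalin, had 54.3, 57.1 and 58.0 FPKM in knockout and 58.4, 56.7 and 52.9 FPKM in wild-type libraries. Dnajc19, a subunit of the import motor of the inner membrane, had 38.5, 39.9 and 35.0 FPKM in knockout and 32.7, 36.3 and 37.4 FPKM in wild-type libraries, and a log2 fold change of 0.09 (SE 0.092). Its processed copy in RefSeq may share reads. Dnajc15, a relative of Dnajc19 in the same motor, had 46.4, 53.2 and 39.2 FPKM in knockout and 41.4, 42.3 and 52.8 FPKM in wild-type libraries.

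Dnajc30, which helps keep up respiratory complex I, had 22.2, 26.6 and 24.0 FPKM in knockout and 21.8, 24.5 and 20.4 FPKM in wild-type libraries (log2 fold change 0.12, SE 0.102). The groups overlapped. Dnajc11, a partner of the complex that shapes cristae, Dnajc4 and Dnajc28 had log2 fold changes of 0.03, 0.01 and -0.07. Hspa9 averaged 266 ± 8.44 FPKM in knockout and 259.9 ± 26.0 FPKM in wild-type kidney (SD, n = 3 each), and the members summed to 77.2% ± 5.89 of it in knockout and 77.4% ± 9.96 in wild-type kidney.

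Of the members that act on clathrin and vesicles, Dnajc6 had the largest positive fold change of the family. Dnajc6 encodes auxilin, which recruits HSC70 to strip clathrin from coated vesicles. It had 6.25, 4.66 and 6.95 FPKM in knockout and 5.41, 5.62 and 3.68 FPKM in wild-type libraries. The groups overlapped, and wild-type replicate 3 was lowest (log2 fold change 0.24, SE 0.17, limma adjusted p = 0.998). Without wild-type replicate 3 the log2 fold change was 0.08. Dnajc5, the cysteine string protein of secretory vesicles, had 22.2, 22.6 and 24.2 FPKM in knockout and 25.2, 24.3 and 23.4 FPKM in wild-type libraries, with overlapping groups and a log2 fold change of -0.07. Dnajc13, or RME-8, which brings HSC70 to endosomes, had 33.4, 20.3 and 32.5 FPKM in knockout and 33.7, 31.7 and 19.5 FPKM in wild-type libraries.

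Knockout replicate 2 and wild-type replicate 3 were thus low together for Dnajc13, 1 library from each group. Both stood under the other 4 libraries in 9 of 39 members, or 23.1%, against 15.2% of all tested genes: Dnajb9, Dnajb14, Dnajc1, Dnajc6, Dnajc13, Dnajc14, Dnajc16, Dnajc18 and Dnajc28. Over 11361 tested genes with a protein-coding transcript in GENCODE M21, the rank correlation between the median transcript length of a gene and its deviation from the mean of the 6 libraries was 0.09, -0.33 and 0.30 in knockout replicates 1, 2 and 3, and 0.28, 0.05 and -0.27 in wild-type libraries. Over the 39 members the same values were 0.30, -0.34 and 0.33 in knockout and 0.25, -0.21 and -0.17 in wild-type libraries. These are descriptions across genes that share a library, and the part of transcript length in the DNAJ values was not tested. The within-group SD on the log2 scale was largest for Dnajb1 (0.49), Dnajc13 (0.40) and Dnajb4 (0.37), against a median of 0.12 over the 39 members and 0.13 over all tested genes.

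**Figure D5:**
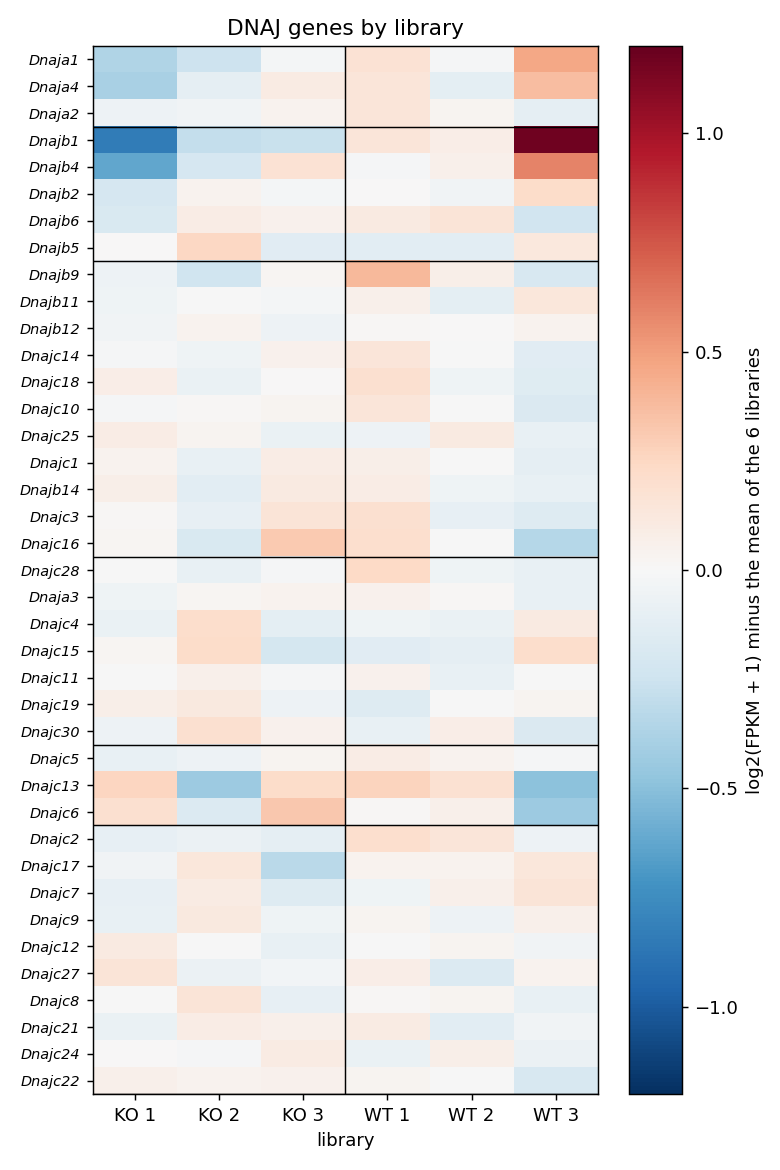
Deviation of log2(FPKM + 1) from the mean of the 6 libraries for each tested DNAJ gene (rows, grouped by where the products work, in the order cytosolic class A, class B, endoplasmic reticulum, mitochondria, vesicles, and ribosome, nucleus and other) in 3 knockout (KO) and 3 wild-type (WT) libraries. Dnajb1, Dnajb4, Dnaja1 and Dnaja4 are lowest in KO 1 and highest in WT 3, and Dnajc13 is low in KO 2 and WT 3.

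Among the members of ribosome, nucleus and other sites Dnajc2 was lower and Dnajc22 higher in every knockout library than in any wild-type library. Dnajc2, or ZRF1, binds the ribosome with an HSP70 relative and folds new chains. It had 20.7, 21.1 and 20.6 FPKM in knockout and 25.8, 24.7 and 21.3 FPKM in wild-type libraries. The gap to wild-type replicate 3 was small, and the log2 fold change was -0.19 (SE 0.0928, limma adjusted p = 0.973; exact permutation p = 0.1). Dnajc22, whose Drosophila counterpart Wurst acts in clathrin-mediated endocytosis, had 66.8, 66.0 and 66.1 FPKM in knockout and 65.4, 63.9 and 55.9 FPKM in wild-type libraries, with a log2 fold change of 0.10 (SE 0.089, limma adjusted p = 0.998, exact permutation p = 0.1). The groups were apart with the knockout lower for 3 of 39 members, Dnajb1, Dnaja1 and Dnajc2, or 7.69%, against 8.57% of all tested genes, and with the knockout higher for 1, Dnajc22, or 2.56%, against 2.01%. Both shares are near the background.

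Dnajc12, which assists the folding of the aromatic amino acid hydroxylases, was the most abundant member. It had 162, 149 and 141 FPKM in knockout and 149, 154 and 146 FPKM in wild-type libraries, and a log2 fold change of 0.01. Dnajc7, which passes clients between HSP70 and HSP90, had 41.7, 48.3 and 40.1 FPKM in knockout and 43.2, 46.8 and 50.02 FPKM in wild-type libraries (log2 fold change -0.11, SE 0.102). Neither gene's groups were apart. Dnajc17, a nuclear protein linked to splicing, had 4.07, 4.71 and 3.16 FPKM in knockout and 4.36, 4.38 and 4.74 FPKM in wild-type libraries, and a log2 fold change of -0.15 (SE 0.123).

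Dnajc21, a factor of ribosome assembly, had 17.9, 20.1 and 19.7 FPKM in knockout and 20.3, 17.2 and 18.3 FPKM in wild-type libraries. Dnajc24, which takes part in diphthamide synthesis, had 5.69, 5.60 and 6.16 FPKM in knockout and 5.31, 6.03 and 5.37 FPKM in wild-type libraries. Both overlapped between the groups, with log2 fold changes of 0.05 each. Dnajc8, a spliceosome-associated protein, Dnajc9, a histone co-chaperone, and Dnajc27, a Rab-like GTPase with a J domain, had log2 fold changes of 0.03, -0.02 and 0.03. Dnajc27 was the lowest of the tested members, with a mean of 1.07 FPKM over the 6 libraries.

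The 6 untested members were Dnajb3, Dnajb7, Dnajb8, Dnajb13, Dnajc5b and Dnajc5g. Dnajb3 was the highest, at 0.385, 0.388 and 0.292 FPKM in knockout and 0.153, 0.601 and 0.373 FPKM in wild-type libraries. It lies within the Ugt1a gene cluster, and Dnajb4, Dnajc1, Dnajc7, Dnajc14, Dnajc17, Dnajc19 and Dnajc30 also overlap other genes in RefSeq, so reads may have been shared where strand was not used. Dnajb13 and Dnajb7 had means of 0.105 and 0.0919 FPKM over the 6 libraries, Dnajb8 was above 0 in wild-type replicate 3 alone, at 0.0146 FPKM, and Dnajc5b and Dnajc5g were listed at 0 in every library.

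No listed gene around the co-chaperone cycle passed the test. Their counts stand beside those of all 12174 tested genes, of which 64.9% were below 0 and 4.21% lower and 0.953% higher at an unadjusted p under 0.05. Over the HSP70 family 0 of 15 tested members passed (limma adjusted p, 3 at an unadjusted p under 0.05), 10 were below 0, a share close to that of all tested genes, and the median log2 fold change was -0.17, against -0.04 over all tested genes. The 3 were Hspa8, the deleted gene itself, with Hsph1 and Hspa5. Hsph1, an HSP110 nucleotide exchange factor, had 30.2, 36.9 and 50.3 FPKM in knockout and 58.5, 49.96 and 85.1 FPKM in wild-type libraries. Of the 13 nucleotide exchange factors and HSP70 adaptors 0 passed in limma (1 unadjusted), with 10 below 0 and a median of -0.06. Bag3, an exchange factor of selective autophagy, and Stip1, the HOP adaptor to HSP90, had log2 fold changes of -0.49 and -0.24, and Grpel2, the exchange factor of mortalin, had 0.14. Of 21 heat shock response genes 0 passed in limma (4 unadjusted), with 18 below 0 and a median of -0.24, among them Chordc1, a co-chaperone of HSP90, at -0.54, and Hspb8, a small heat shock protein that works with Bag3, at -0.39. Of 21 tested genes of the unfolded protein response 0 passed in limma (4 unadjusted), with 19 below 0 and a median of -0.16, among them Syvn1 at -0.48, Manf at -0.51 and Xbp1 at -0.36. These lists share genes, so their counts are not separate. Hsph1, Bag3 and Hspa5 were each counted at an unadjusted p under 0.05 in more than 1 list. The groups were apart with the knockout lower in 5 of 21 heat shock genes and 4 of 21 unfolded protein response genes, beside the 8.57% of all tested genes. Wild-type replicate 3 had the highest summed level of both lists, at 4230 and 1885 FPKM, against at most 3151 and 1562 FPKM in the other libraries. Without that library the log2 fold changes were -0.35 for Bag3, -0.10 for Stip1, -0.49 for Chordc1 and -0.21 for Hspb8. Those of Syvn1, Manf and Xbp1 were -0.34, -0.35 and -0.26. It was the highest library for each of these genes, so leaving it out had to raise the values.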

How the data were processed

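Per the labels' protocols, libraries were made with a SMARTer mRNA kit. The values deposited by the authors are FPKM, so length and library total were divided out before deposit. The submitters' processing notes name the builds GRCm38 and mm10, with aligner, quantifier and annotation not given in the sources used here. Groups follow the genotype label. Knockout columns begin with A8 and were matched by number to the HSPA8KO titles, and 0 columns were left over. limma 3.58.1 (R 4.3.3) was run on log2(FPKM + 1) with group as the only term, a variance trend and a minimum mean of 1 FPKM. A search for whole-read steps among genes under 0.1 FPKM found at most 0.625% of genes at a common ratio for any pair of libraries, so no reads were recovered. RefSeq on GRCm38.p6 gave coordinates for all 45 members. Values per library are given for the 8 tested members with the smallest p in each direction, the 8 most abundant and 13 listed by name; Dnajb3, Dnajc13 and Eif2ak2 were added after their values were seen. Of other lists up to 4 genes with the smallest p were taken. Members, roles and lists were chosen with earlier results of these data known. There were 17 alternatives. Values of some listed genes are not reported here. Figures were drawn with matplotlib 3.10.9.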

Additional observations from a re-analysis of the deposited data

How the results depend on the processing

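In all 17 alternatives limma called 0 DNAJ members. Over all genes it called 0 in the main analysis and in 15 alternatives. It called 5 without Hspa8 knockout replicate 2, and 5 with wild-type replicate 3 left out as well, all 5 of them globin genes that were higher in the knockout, so leaving out 1 library at a time gave 0 to 5. The members' median log2 fold change, 0.01, was 0.0620 with library medians equalised and between -0.03 and 0.03 with 1 library left out. Dnajb1, Dnaja1, Dnajb4, Dnaja4, Dnajc2 and Hspa8 kept a negative sign in every alternative, with Dnajb1 between -1.12 and -0.39 and Hspa8 between -0.77 and -0.54. Of the 16 members with the smallest p, 8 in each direction, Dnajb2 turned to 0.0260 and Dnajc16 to -0.0352 when knockout replicate 1 and wild-type replicate 3 were both left out; with 1 library left out Dnajb5 ran from -0.0200 to 0.17, Dnajc16 from -0.0485 to 0.22 and Dnajc21 from -0.0029 to 0.11. The cause was not tested. Of the other 23 members 21 changed sign in at least 1 alternative, among them Dnajc3, which ran from -0.02 to 0.15. Correlations of same-numbered deviations were 0.31, -0.21 and -0.32, and 1 of 3 knockout libraries correlated best with its own number. With so few libraries in each group these values cannot settle whether the replicate numbers pair the samples. With the number as a block limma called 0 members and 0 genes, with 417 genes at an unadjusted p under 0.05 against 629 without it. Depth is unknown, so the precision of low members such as Dnajb5 and Dnajc27 rests on the replicate spread, which limma moderates with that of the other genes.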

Other observations

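Some J-domain proteins whose genes carry other names were also measured. Gak, the auxilin relative found in most tissues, averaged 25.2 ± 1.08 FPKM in knockout and 24.5 ± 2.84 FPKM in wild-type kidney (SD, n = 3 each), a log2 fold change of 0.05 (SE 0.101). It stood above auxilin, Dnajc6, which averaged 5.96 ± 1.17 FPKM in knockout and 4.91 ± 1.06 FPKM in wild-type kidney. Sec63, the J-domain protein of the translocon, averaged 17.9 ± 0.671 FPKM in knockout and 17.3 ± 0.587 FPKM in wild-type kidney. Hscb, which serves iron-sulphur cluster assembly, averaged 14.1 ± 2.18 FPKM in knockout and 14.6 ± 2.37 FPKM in wild-type kidney. None of Gak, Sec63 and Hscb passed (limma, 0 of 3, and 0 of 3 at an unadjusted p under 0.05).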
